A study of Mus musculus with 12 samples.

Results

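Respiratory complex I is described here through 33 nuclear, autosomal subunit genes, given as a list of symbols and matched to Ensembl identifiers among the 57010 in the count tables. Complex I is the entry enzyme of the mitochondrial respiratory chain: it takes electrons from NADH, passes them through a flavin and a row of iron-sulfur clusters to ubiquinone, and pumps protons across the inner membrane. Core subunits carry this chemistry, and supernumerary subunits surround them along a matrix arm and a membrane arm; further core subunits are encoded by the mitochondrial genome. Chondrocytes, the matrix-forming cells of cartilage, live in a tissue poor in oxygen and are known for drawing much of their ATP from glycolysis.

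The study measured poly(A)-selected RNA in 12 libraries of primary mouse chondrocytes, all of the genotype given as Wild type. By the treatment labels, 4 libraries were Control, 4 were WT (read here as transfected with the wild-type plasmid) and 4 were transfected with the SIRT5F101L mutant plasmid. SIRT5, a sirtuin of the mitochondria, strips malonyl, succinyl and glutaryl groups from lysine side chains. The labels do not give what the Control cells received, the promoter or the species of the plasmid sequence, or the age of the mice. Replicate numbers follow the order of deposition and only name libraries. Nothing says that the libraries of a group came from separate cultures or animals, so p-values measure the spread between these libraries, which may be technical.

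Total counts per library ran from 15095357 to 24242139. Sirt5 had 9 to 16 counts in the Control libraries, 1 to 9 in the WT libraries and 9 to 19 in the SIRT5F101L libraries, and was called in no comparison, so it gave no check of the plasmid labels. The chondrocyte markers Col2a1, Acan and Sox9 were present in every library. Of 14 chondrocyte markers 11 fell in each plasmid group against Control, while 3 rose in WT and 2 in SIRT5F101L. Of all tested genes 28.1% fell and 28.7% rose in WT, and 30.7% fell and 30% rose in SIRT5F101L. The summed level of the chondrocyte markers was 9348 to 11712 CPM (counts scaled to a common library size) in Control, 2957 to 3081 in WT and 2478 to 2712 in SIRT5F101L. Of 7 fibroblast markers 6 fell and 1 rose in each. Their summed level exceeded that of the chondrocyte markers in every library. It was 29903 to 35802 CPM in Control, 9679 to 11090 in WT and 9340 to 10723 in SIRT5F101L. All 7 macrophage markers fell in each plasmid group, with macrophage sums of 161 to 198, 83.5 to 96.0 and 83.0 to 107 CPM. Of the markers tested, 3 of 4 for osteoblasts, 2 of 2 for muscle and 0 of 4 for endothelium fell in each, while Hba-a2 of the erythroid list and Actc1 of the muscle list were at 0. The part of these changes in the subunit results was not tested. In bulk libraries, fewer cells of a type and less RNA per cell cannot be told apart.

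Of the 33 subunits, 31 passed the filter on low counts and were tested among 14253 genes. Ndufa13 and Ndufb8, both of the membrane arm, were listed at 0 counts in all 12 libraries. The mitochondrially encoded subunits and all 2414 identifiers on the X chromosome were also listed at 0, so these zeros are not read as absent RNA. The lowest of the tested subunits, Ndufb2, had 24 to 60 counts per library.

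SIRT5F101L replicate 1 stood apart from its group. It lay above the other 3 SIRT5F101L libraries for 29 of 31 subunits, against 34.1% of all tested genes. For 16 subunits it lay within the Control range, for 7 below it and for 8 above it. WT replicate 1 lay below the other 3 WT libraries for 26 of 31 subunits, against 30.3% of all genes. The CPM summed over the subunits was 1893 to 2079 in Control, 1527, 1832, 1712 and 1898 in WT replicates 1 to 4, and 1969.8, 1319, 1406 and 1322 in SIRT5F101L replicates 1 to 4. SIRT5F101L replicates 2 to 4 lay below all Control libraries for 27 of 31 subunits, against 31.9% of all genes. By the sum, SIRT5F101L replicate 1 sat inside the Control range and the other 3 below every other library.

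**Figure D1:**
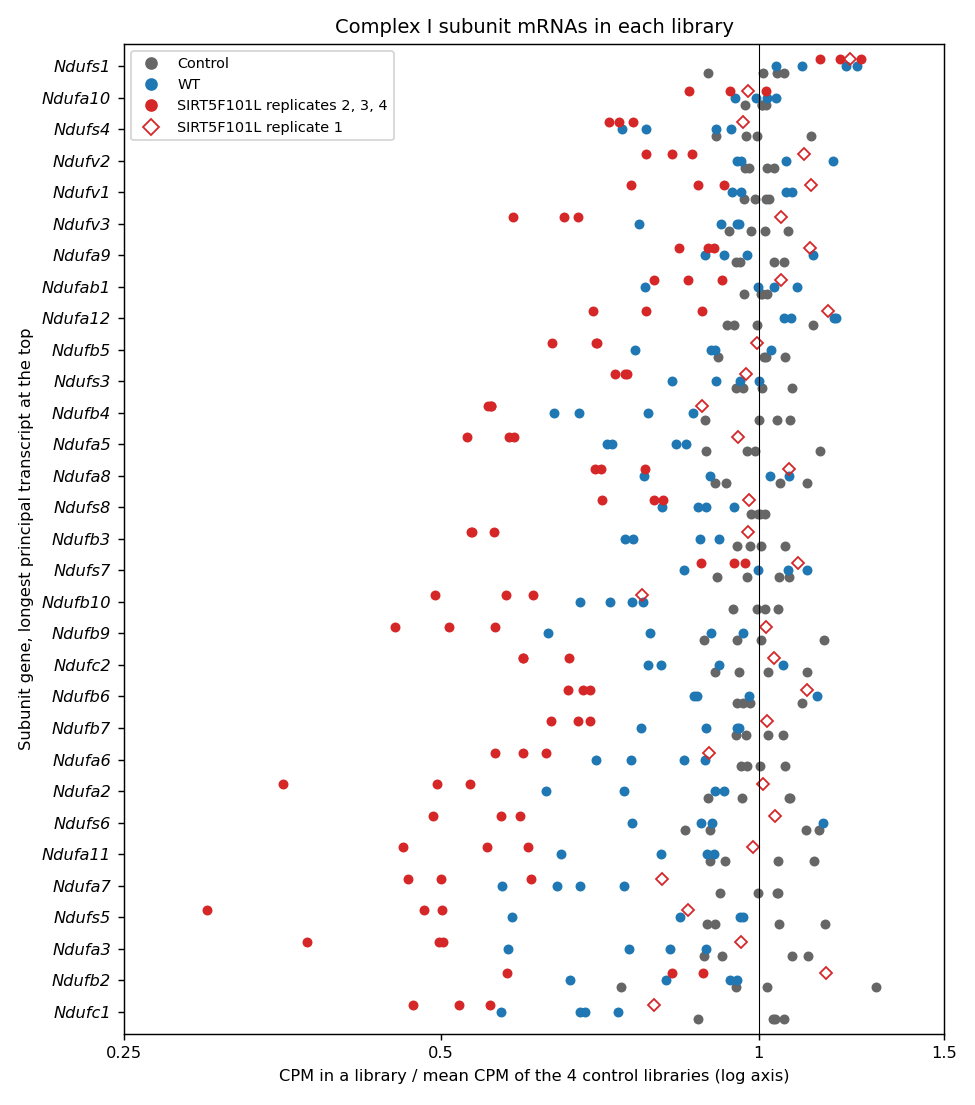
CPM of each tested subunit in each library divided by the mean of the 4 Control libraries (log axis), with 1 row per gene. SIRT5F101L replicates 2 to 4 lie below every Control library for 27 of 31 subunits, while replicate 1 lies within the Control range for 16.

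Per kilobase of principal transcript, Ndufa7, a small matrix-arm subunit, was the most abundant subunit mRNA in Control at 281 ± 16.3 CPM per kilobase (SD, n = 4). Ndufa2 followed at 188 ± 16.1 and Ndufc1 at 184 ± 15.5 CPM per kilobase, and these 2 did not differ beyond their spread. The place of Ndufc1 rests on a principal transcript of 315 bases, while its longest transcript has 1249. At the low end came Ndufab1 (16.2 ± 0.359) and Ndufs1 (15.2 ± 1.11), whose ranges of mean ± SD overlapped, and Ndufb2 was lowest of those tested at 5.18 ± 1.18 CPM per kilobase. Ndufa7 also ranked first in WT (185 ± 20.3) and in SIRT5F101L (167 ± 43.6).

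In WT against Control, 7 of 31 subunits fell, against 28.1% of all tested genes, and 1 rose, against 28.7%, in the quasi-likelihood test of edgeR (Benjamini-Hochberg adjusted p under 0.05). The share of subunits called lower was thus near the background. The 7 were Ndufa5, Ndufa6, Ndufa7 and Ndufs4 of the matrix arm and Ndufb4, Ndufb10 and Ndufc1 of the membrane arm. The median log2 fold change of the subunits was -0.17, beside -0.01 for all genes, and 26 of 31 were below 0, against 51.2% of all genes. All WT libraries lay below all Control libraries for 8 subunits, against 26.5% of all genes. The count moved with single libraries: it was 4 without WT replicate 1 (25.6% of all genes) or without WT replicate 3 (25.5%), and 15 without SIRT5F101L replicate 1 (30%), a library of neither group that takes part in the common fit. It was also 12 with no filter beyond 1 count (16.1%) and 14 in a fit of only the 8 libraries compared (29.9%), so the nearness to the background holds for the main fit and not for these. The median was -0.07 with the principal length trend removed, where 21 of 31 were below 0, and -0.11 without WT replicate 1. With each library's length slope as a covariate it turned to 0.04, with 12 of 31 below 0; without SIRT5F101L replicate 1 as well it was also 0.04, with 13 below 0.

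In SIRT5F101L against Control, 22 of 31 subunits fell, against 30.7% of all tested genes, and 1 rose, against 30% (edgeR, Benjamini-Hochberg). The median log2 fold change was -0.41, beside -0.02 for all genes, and 30 of 31 were below 0, against 51.2% of all genes. By role, 2 of 6 core subunits fell and 1 rose, 7 of 9 matrix-arm supernumerary subunits fell, and 13 of 15 tested membrane-arm supernumerary subunits fell. The libraries were wholly apart for fewer: 7 subunits lower and 1 higher, against 25.7% of all genes in each direction. Without SIRT5F101L replicate 1, 26 fell, against 32.1% of all genes, with a median of -0.58. With the principal length trend removed 18 fell, against 32.7% of all genes, with a median of -0.21. With the length slope as a covariate 4 fell, against 23.4% of all genes, with a median of -0.02. Both comparisons use the same Control libraries, so their values are given side by side and are not independent.

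**Figure D2:**
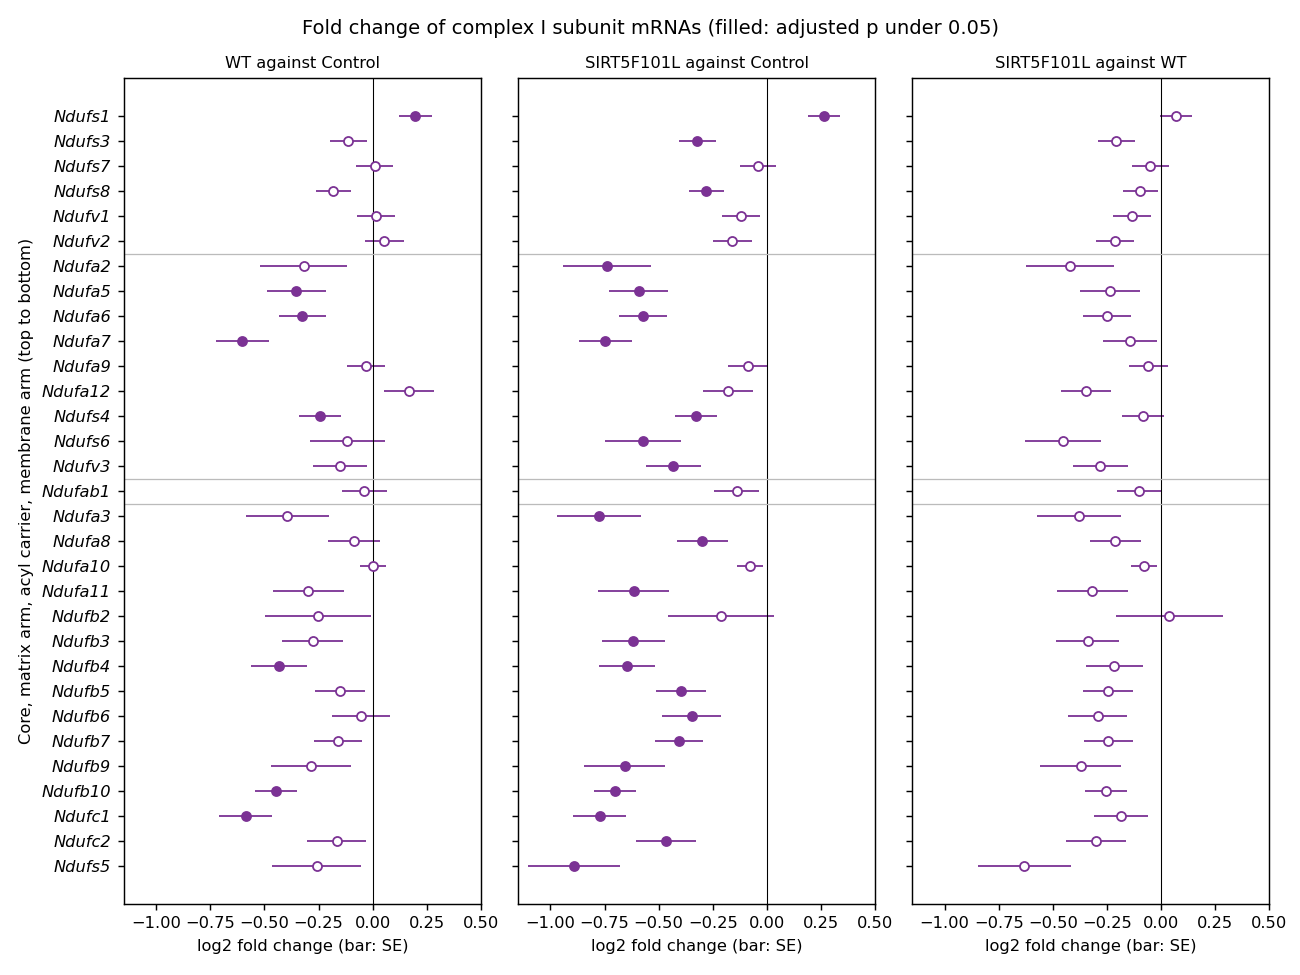
Log2 fold change and SE of the 31 tested subunits in the 3 comparisons, filled where the adjusted p was under 0.05. In SIRT5F101L against Control 22 subunits are called lower and Ndufs1 higher, and in SIRT5F101L against WT none is called.

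The core subunits had the smallest changes of the 3 structural groups, with a median log2 fold change of -0.14 in SIRT5F101L against Control, beside -0.57 for the matrix-arm and -0.61 for the membrane-arm supernumerary subunits. The difference between roles was not tested, and role was not set apart from transcript length. Principal transcripts were 2590 bases for Ndufs1, 1697 for Ndufv2, 1661 for Ndufv1, 1046 for Ndufs3, 780 for Ndufs8 and 758 for Ndufs7. Most membrane-arm subunits had principal transcripts under 1000 bases. Ndufs1, the largest core subunit and a carrier of iron-sulfur clusters, was the 1 subunit that rose. Its level was 39.7, 41.5, 40.9 and 35.2 CPM in the Control libraries, 43.2, 47.6, 40.8 and 48.7 CPM in the WT libraries and 48.0, 49.2, 44.9 and 47.0 CPM in the SIRT5F101L libraries. Every SIRT5F101L library exceeded every Control library, and WT replicate 3 lay inside the Control range. The log2 fold change was 0.20 in WT (SE 0.08, edgeR adjusted p = 0.0316) and 0.26 in SIRT5F101L (SE 0.07, adjusted p = 0.0048). The call in WT was lost without Control replicate 1 or 4 or without WT replicate 2 or 4. It was also lost with upper-quartile scaling and with no filter beyond 1 count. With the GC trend removed the calls in WT and in SIRT5F101L were both lost.

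Ndufv1 binds NADH and the flavin, and Ndufv2 beside it carries an iron-sulfur cluster. Ndufv1 stood at 81.4, 79.4, 83.4 and 84.0 CPM in the Control libraries, 77.5, 78.9, 87.1 and 88.3 CPM in the WT libraries and 91.9, 62.1, 71.8 and 76.0 CPM in the SIRT5F101L libraries. Ndufv2 stood at 99.7, 104, 105 and 98.8 CPM in the Control libraries, 97.1, 108, 97.9 and 119.6 CPM in the WT libraries and 112, 84.3, 88.0 and 79.7 CPM in the SIRT5F101L libraries. For both, SIRT5F101L replicate 1 lay above the whole Control range and the other 3 below it. Their log2 fold changes in SIRT5F101L were -0.12 (SE 0.09) and -0.16 (SE 0.09) and were not called; without SIRT5F101L replicate 1 both were called, at -0.23 and -0.27. In WT the values were 0.02 and 0.05, not called.

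Ndufs3, Ndufs7 and Ndufs8 belong to the part of the matrix arm that hands electrons to ubiquinone. Ndufs3 stood at 79.1, 74.7, 84.5 and 75.9 CPM in the Control libraries, 64.9, 75.4, 71.5 and 78.6 CPM in the WT libraries and 76.3, 57.4, 58.7 and 58.9 CPM in the SIRT5F101L libraries. Ndufs8, which carries iron-sulfur clusters, stood at 65.1, 66.3, 67.0 and 66.0 CPM in the Control libraries, 53.5, 58.9, 57.9 and 62.7 CPM in the WT libraries and 64.7, 53.7, 52.5 and 47.0 CPM in the SIRT5F101L libraries. For Ndufs8 every plasmid library lay below every Control library, SIRT5F101L replicate 1 by a narrow margin, whereas for Ndufs3 that replicate lay inside the Control range. In SIRT5F101L, Ndufs3 fell by 0.32 (SE 0.09, edgeR adjusted p = 0.00305) and Ndufs8 by 0.28 (SE 0.08, adjusted p = 0.00546) on the log2 scale. With the principal length trend removed neither was called, at -0.13 and -0.06, nor with the length slope as a covariate, at -0.04 for each. In WT their values of -0.11 and -0.18 were not called.

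Ndufs7 holds the last cluster before ubiquinone. It stood at 74.3, 72.6, 63.5 and 67.8 CPM in the Control libraries, 59.1, 69.5, 74.1 and 77.4 CPM in the WT libraries and 75.8, 67.4, 65.9 and 61.3 CPM in the SIRT5F101L libraries. The 3 groups overlapped. Its log2 fold change was 0.01 in WT (95% interval -0.17 to 0.18) and -0.04 in SIRT5F101L (interval -0.22 to 0.13). With the principal length trend removed the SIRT5F101L value turned to 0.18 and was called higher (edgeR adjusted p = 0.0205).

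Among the matrix-arm supernumerary subunits, Ndufa7 had the lowest log2 fold change in both comparisons with Control. Its level was 148, 155, 154 and 136 CPM in the Control libraries, 84.7, 100.3, 95.6 and 110.5 CPM in the WT libraries and 120.0, 68.9, 90.2 and 74.1 CPM in the SIRT5F101L libraries. Every plasmid library lay below every Control library. It fell by 0.60 in WT (SE 0.12, edgeR adjusted p = 0.000309) and by 0.75 in SIRT5F101L (SE 0.12, adjusted p = 2.85e-05) on the log2 scale.

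Ndufa5 stood at 49.96, 45.7, 58.6 and 50.9 CPM in the Control libraries, 37.3, 43.7, 36.8 and 42.8 CPM in the WT libraries and 49.1, 30.1, 29.8 and 27.2 CPM in the SIRT5F101L libraries. Ndufa6, an LYR protein that binds the acyl carrier subunit Ndufab1, stood at 85.2, 86.3, 93.7 and 88.6 CPM in the Control libraries, 62.0, 75.0, 66.9 and 78.7 CPM in the WT libraries and 79.4, 52.8, 55.6 and 49.8 CPM in the SIRT5F101L libraries. The WT libraries lay below Control for both genes; SIRT5F101L replicate 1 was inside the Control range for Ndufa5 and below it for Ndufa6. Ndufa5 fell by 0.35 in WT (edgeR adjusted p = 0.0325) and 0.59 in SIRT5F101L (adjusted p = 0.000931), with an SE of 0.14. Ndufa6 fell by 0.32 in WT (edgeR adjusted p = 0.0169) and 0.57 in SIRT5F101L (adjusted p = 0.000167), with an SE of 0.11. Both WT calls were lost without WT replicate 1 or 3, and that of Ndufa5 also without Control replicate 1, 3 or 4. They were also lost with the length slope as a covariate, and that of Ndufa5 with a robust prior. The SIRT5F101L call of Ndufa5 was lost with that covariate too (-0.14), while that of Ndufa6 was kept (-0.17).

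Ndufs4 supports the NADH-oxidising module, and its loss causes Leigh syndrome in people. It stood at 70.0, 80.7, 71.7 and 65.5 CPM in the Control libraries, 53.4, 65.6, 56.3 and 67.7 CPM in the WT libraries and 69.6, 51.9, 54.7 and 53.0 CPM in the SIRT5F101L libraries. WT replicates 2 and 4 and SIRT5F101L replicate 1 lay within the Control range. Ndufs4 fell by 0.24 in WT (SE 0.10, edgeR adjusted p = 0.0362) and by 0.33 in SIRT5F101L (SE 0.10, adjusted p = 0.00603). The WT call was lost without Control replicate 1, 2 or 3 or WT replicate 1 or 3. It was also lost with either length trend removed and with the length slope as a covariate. The SIRT5F101L call was lost with that covariate (-0.03).

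Among the membrane-arm subunits, Ndufb10, which faces the intermembrane space, had the lowest p in SIRT5F101L against Control. It stood at 84.4, 80.6, 82.0 and 76.5 CPM in the Control libraries, 54.7, 58.5, 61.4 and 62.8 CPM in the WT libraries and 62.7, 39.9, 49.5 and 46.6 CPM in the SIRT5F101L libraries. Both plasmid groups lay wholly below Control, and SIRT5F101L replicate 1 lay within the WT range. Ndufb10 fell by 0.45 in WT (SE 0.10, edgeR adjusted p = 0.000513) and by 0.70 in SIRT5F101L (SE 0.10, adjusted p = 3.13e-06). Of the 23 subunits called in SIRT5F101L against Control, it was the 1 that kept its call under every alternative tried.

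Ndufc1, a small membrane-arm subunit, stood at 61.3, 59.9, 60.2 and 50.8 CPM in the Control libraries, 33.1, 39.3, 39.7 and 42.7 CPM in the WT libraries and 46.2, 32.3, 30.2 and 27.3 CPM in the SIRT5F101L libraries. No plasmid library reached the Control range. It fell by 0.59 in WT (SE 0.12, edgeR adjusted p = 0.00041) and by 0.77 in SIRT5F101L (SE 0.12, adjusted p = 1.98e-05).

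Ndufb4 stood at 54.7, 56.4, 52.6 and 46.8 CPM in the Control libraries, 33.7, 41.3, 35.6 and 45.6 CPM in the WT libraries and 46.5, 29.4, 29.2 and 29.4 CPM in the SIRT5F101L libraries. Every plasmid library lay below Control, and SIRT5F101L replicates 2 to 4 also lay below every WT library. It fell by 0.43 in WT (SE 0.13, edgeR adjusted p = 0.00741) and by 0.65 in SIRT5F101L (SE 0.13, adjusted p = 0.000233).

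Ndufs5, another subunit of the intermembrane space side, had the lowest log2 fold change in SIRT5F101L against Control. It stood at 17.8, 13.7, 16.1 and 14.0 CPM in the Control libraries, 8.98, 14.9, 14.8 and 13.0 CPM in the WT libraries and 13.2, 4.61, 7.42 and 7.71 CPM in the SIRT5F101L libraries. All SIRT5F101L libraries lay below Control, replicate 1 by a narrow margin. It fell by 0.89 on the log2 scale (SE 0.21, edgeR adjusted p = 0.00116), with a value of -1.20 without SIRT5F101L replicate 1. With the length slope as a covariate Ndufs5 was at -0.27 and not called. In WT its value of -0.26 (SE 0.21) was not called.

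Ndufa3 stood at 75.2, 62.3, 72.5 and 59.8 CPM in the Control libraries, 39.0, 60.1, 50.8 and 55.6 CPM in the WT libraries and 64.9, 25.1, 33.5 and 33.8 CPM in the SIRT5F101L libraries. SIRT5F101L replicate 1 lay inside the Control range and the other 3 below every WT library. Ndufa3 fell by 0.77 (SE 0.19, edgeR adjusted p = 0.00184), with a value of -1.12 without SIRT5F101L replicate 1. With the length slope as a covariate Ndufa3 was at -0.12 and not called. Its WT value of -0.39 was not called.

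Ndufa8, which faces the intermembrane space, stood at 79.5, 89.4, 94.7 and 77.5 CPM in the Control libraries, 66.4, 91.1, 76.6 and 87.5 CPM in the WT libraries and 91.1, 66.5, 59.6 and 60.4 CPM in the SIRT5F101L libraries. SIRT5F101L replicate 1 lay inside the Control range and the other 3 below it. It fell by 0.30 (SE 0.12, edgeR adjusted p = 0.0359), a call that was lost without Control replicate 2 or 3 or SIRT5F101L replicate 2, 3 or 4. It was also lost with the longest length trend removed (-0.17), the principal trend removed (-0.10), the GC trend removed or a robust prior, and the value turned to 0.12 with the length slope as a covariate. The call of Ndufb6 (-0.35, SE 0.13) was lost without the same libraries, with only the 8 libraries compared and with the principal trend removed (-0.14), and its value turned to 0.09 with the slope covariate.

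The other subunits that fell in SIRT5F101L were Ndufa2, Ndufs6 and Ndufv3 of the matrix arm and Ndufa11, Ndufb3, Ndufb5, Ndufb7, Ndufb9 and Ndufc2 of the membrane arm. Their log2 fold changes ran from -0.74 (Ndufa2) to -0.40 (Ndufb5). In each of them SIRT5F101L replicates 2 to 4 lay below every Control and every WT library, and replicate 1 lay within the Control range. All of them kept the call with the principal length trend removed. None kept it with the length slope as a covariate, where the values ran from -0.12 (Ndufb3) to 0.02 (Ndufv3).

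The 8 subunits not called in SIRT5F101L against Control were Ndufv1, Ndufv2, Ndufs7, Ndufa9, Ndufa10, Ndufa12, Ndufb2 and Ndufab1, the acyl carrier protein that also serves mitochondrial fatty acid synthesis. Ndufa10, a membrane-arm subunit of the deoxynucleoside kinase family, had a log2 fold change of -0.08 with an SE of 0.06 and a 95% interval of -0.20 to 0.05. Ndufa9 had an interval of -0.27 to 0.10 and Ndufab1 of -0.35 to 0.07. The interval of Ndufb2, the subunit with the fewest counts, was wider, at -0.72 to 0.30.

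Promoter sequences are shown for Ndufs5 (lowest log2 fold change), Ndufb10 (lowest p) and Ndufa10 (not called, narrow interval), to set side by side subunits that moved and 1 that was not called. Each is the 250 bases before the transcript start in the RefSeq table for GRCm38.p6, 5' to 3' on the minus strand, at chr4:123718187-123718436, chr17:24724424-24724673 and chr1:92473759-92474008. Capitals mark the NRF1 word in Ndufs5 and the CREB word in Ndufa10.
Ndufs5: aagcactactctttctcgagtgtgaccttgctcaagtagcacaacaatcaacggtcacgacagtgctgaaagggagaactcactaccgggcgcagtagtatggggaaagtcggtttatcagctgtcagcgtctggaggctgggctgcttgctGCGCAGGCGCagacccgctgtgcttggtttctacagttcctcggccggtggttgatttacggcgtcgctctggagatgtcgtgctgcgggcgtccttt
Ndufb10: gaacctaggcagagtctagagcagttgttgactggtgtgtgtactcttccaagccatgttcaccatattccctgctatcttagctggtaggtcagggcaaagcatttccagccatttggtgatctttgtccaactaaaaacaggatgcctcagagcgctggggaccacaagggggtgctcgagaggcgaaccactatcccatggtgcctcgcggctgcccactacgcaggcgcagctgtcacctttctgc
Ndufa10: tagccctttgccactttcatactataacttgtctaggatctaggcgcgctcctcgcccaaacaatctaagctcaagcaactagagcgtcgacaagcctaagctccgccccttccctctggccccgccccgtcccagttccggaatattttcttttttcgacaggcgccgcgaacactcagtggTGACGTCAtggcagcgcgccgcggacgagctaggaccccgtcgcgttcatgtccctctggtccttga
The 6 words were searched on both strands of these windows in the 30 subunits found in the table (all but Ndufs1, Ndufa2 and Ndufb9); the forms of the words were chosen after other forms had been looked at. The recognition word of NRF1, a factor known for acting on respiratory chain genes, was in 6 of 30 (Ndufa5, Ndufa8, Ndufa11, Ndufb4, Ndufs5 and Ndufs6) and in 4.233% of 27025 genes. The ETS word CCGGAAG was in 3 (Ndufb6, Ndufb7 and Ndufs3) and in 7.826% of genes, and the CREB word TGACGTCA in 3 (Ndufa10, Ndufa11 and Ndufb2) and in 1.769%. The YY1 word was in 0 of 30 and in 0.248% of genes, CCAAT in 9 and in 37.495%, and TATAAA in 4 and in 14.327%. A match describes letters and is not a measured site.

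SIRT5F101L against WT tests directly whether the plasmid groups differ. By edgeR with Benjamini-Hochberg adjustment 0 of 31 subunits were called, against 0.0421% of all genes (6 genes). DESeq2 called 0 of the 30 subunits it gave an adjusted p, against 44 genes, or 0.448% of those with an adjusted p. With no filter beyond 1 count, 10 were called lower, against 0.921% of all genes. At an unadjusted p under 0.05 there were 13 subunits, all lower, against 6.31% of all genes for that direction. The log2 fold change was below 0 for 29 of 31, against 50% of all genes, with a median of -0.24. That median was -0.13 with the principal length trend removed and -0.05 with the length slope as a covariate, where 21 of 31 were below 0. The libraries were wholly apart for 0 subunits, against 2.03% of all genes lower in SIRT5F101L.

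Ndufa12, a matrix-arm subunit, had the lowest p. It stood at 41.2, 38.6, 46.6 and 39.3 CPM in the Control libraries, 43.8, 49.1, 44.5 and 48.9 CPM in the WT libraries and 48.2, 28.9, 36.6 and 32.4 CPM in the SIRT5F101L libraries. SIRT5F101L replicate 1 lay within the WT range and the other 3 below every WT and Control library. Its log2 fold change was -0.35 (SE 0.11, 95% interval -0.59 to -0.11, edgeR adjusted p = 0.355).

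Next by p were Ndufs5 at -0.63 (interval -1.08 to -0.18), Ndufb10 at -0.25 (interval -0.46 to -0.05) and Ndufs6 at -0.45 (interval -0.82 to -0.09). Ndufs6, a zinc-binding subunit, stood at 45.1, 33.7, 43.9 and 35.6 CPM in the Control libraries, 30.0, 45.5, 34.9 and 35.7 CPM in the WT libraries and 41.1, 23.5, 22.5 and 19.4 CPM in the SIRT5F101L libraries. Here too SIRT5F101L replicates 2 to 4 lay below every other library and replicate 1 did not.

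The count also changed with 1 library. Without SIRT5F101L replicate 1, 23 of 31 subunits were called lower than in WT, against 8.58% of all genes, with a median of -0.40. Without WT replicate 1 as well, 26 were called, against 10.8%. Leaving out any other single library gave 0. SIRT5F101L replicates 2 to 4 lay below all WT and all Control libraries for 21 of 31 subunits, against 8.76% of all genes.

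Most subunit mRNAs are short, and transcript length moved with the groups across all genes. The slope of log2 CPM on log2 principal transcript length was 0.157 to 0.194 in Control, 0.314, 0.233, 0.259 and 0.212 in WT replicates 1 to 4, and 0.186, 0.352, 0.354 and 0.375 in SIRT5F101L replicates 1 to 4. SIRT5F101L replicate 1 had a slope within the Control range and the other 3 the steepest slopes of all, and WT replicate 1 had the steepest of its group.

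**Figure D3:**
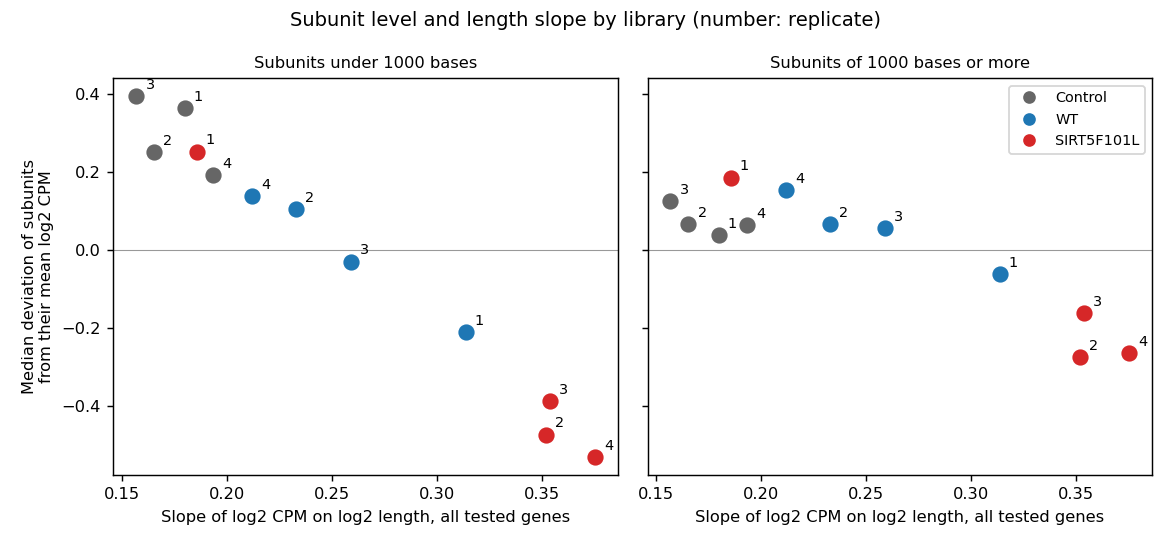
Median deviation of the subunits from their mean log2 CPM in each library, against the slope over all tested genes of its log2 CPM with log2 principal transcript length, for subunits under 1000 bases and of 1000 bases or more. SIRT5F101L replicate 1, at a slope of 0.186, lies within the Control range for the short subunits (0.25) and above it for the long ones (0.18), and replicates 2 to 4 sit lowest at slopes of 0.352 to 0.375.

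Of 20 tested subunits with a principal transcript under 1000 bases, 18 fell in SIRT5F101L against Control, with a median log2 fold change of -0.60. Of 11 with 1000 bases or more, 4 fell and Ndufs1 rose, with a median of -0.16. Among all 788 tested genes of 500 to 1000 bases, 54.7% fell and the median was -0.36, beside 17 of 18 subunits of that length and their median of -0.60. Among 2819 genes of 1000 to 2000 bases, 41.9% fell and the median was -0.17, beside 4 of 9 subunits and -0.18. Across the 31 subunits, the log2 fold change and log2 length had a Pearson r of 0.69 in WT against Control, 0.73 in SIRT5F101L against Control and 0.45 in SIRT5F101L against WT, a description over genes that share libraries. On the length of the longest transcript r was 0.40, 0.59 and 0.57. Spearman's rho on principal length was 0.66, 0.70 and 0.45 for the subunits, beside 0.18, 0.26 and 0.35 over 12512 tested genes.

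**Figure D4:**
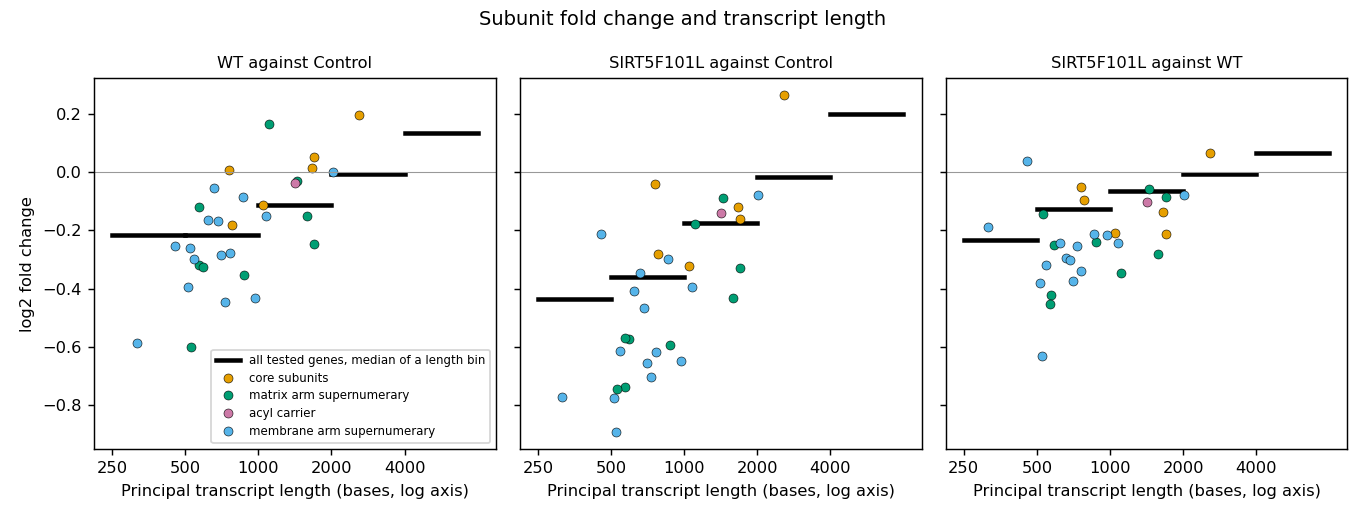
Log2 fold change of each tested subunit against its principal transcript length (log axis), with the median of all tested genes in each length bin as bars. In SIRT5F101L against Control, subunits of 500 to 1000 bases have a median of -0.60 and all genes of that bin -0.36.

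With each library's trend on principal transcript length removed, 18 subunits fell and Ndufs1 and Ndufs7 rose in SIRT5F101L against Control, with a median of -0.21 and 32.7% of all genes called lower. With the trend on the longest transcript removed instead, 21 fell, with a median of -0.36 and 31.3% of all genes called lower. With the library's slope as a covariate, 4 fell (Ndufa6, Ndufa7, Ndufb10 and Ndufc1) and Ndufs1 rose, with a median of -0.02 and 23.4% of all genes called lower. In SIRT5F101L against WT without SIRT5F101L replicate 1, 16 were called lower with the principal length trend removed, against 6.01% of all genes, and 0 with the slope as a covariate, against 0.00688%. The slopes used as the covariate, on the longest transcript, were 0.579 to 0.601 in Control, 0.609 to 0.697 in WT, 0.586 in SIRT5F101L replicate 1 and 0.726 to 0.748 in replicates 2 to 4. Without replicate 1 the 3 groups do not overlap in slope. What made the length slopes differ was not tested.

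**Figure D5:**
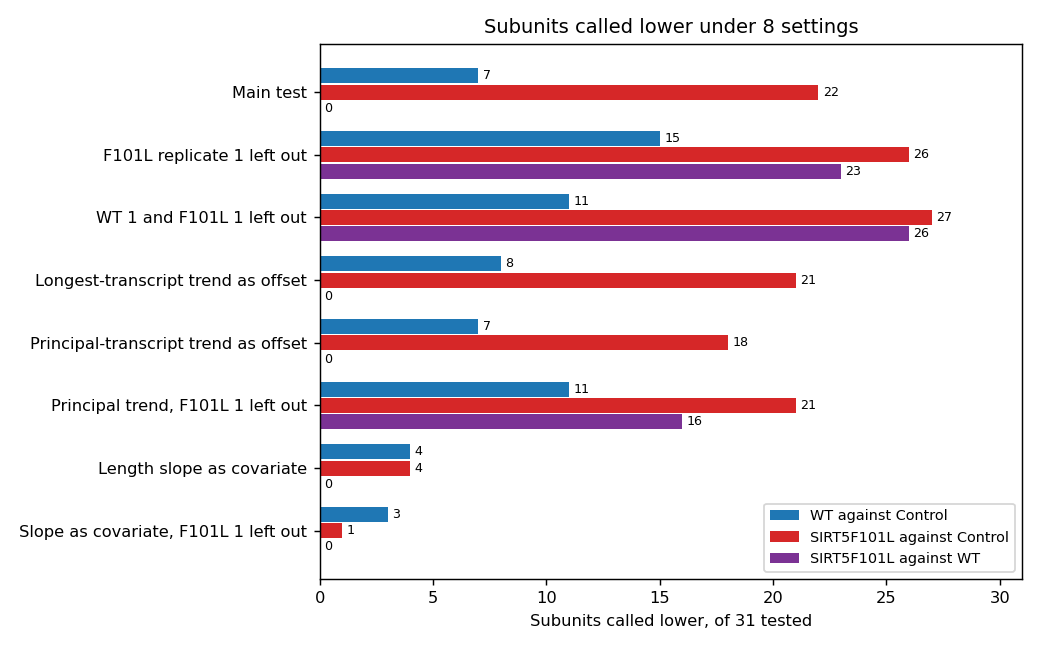
Number of tested subunits called lower in each comparison under different settings (bars from 0). SIRT5F101L against Control gives 22 in the main test and 4 with the length slope as a covariate, and SIRT5F101L against WT gives 0 in the main test and 23 without SIRT5F101L replicate 1.

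Other genes of the pathway were counted beside the subunits. In SIRT5F101L against Control, 9 of 15 tested complex I assembly factors fell and 1 rose (median -0.34), with Dmac1 at -0.81 and Ndufaf8 at -0.98. In the same comparison 2 of 4 complex II genes fell and 1 rose, 5 of 9 of complex III fell and 1 rose, 6 of 10 of complex IV fell, and 9 of 15 of ATP synthase fell and 1 rose. Of 72 mitochondrial ribosomal protein genes 37 fell and 9 rose (median -0.28). These counts stand beside 30.7% of all genes lower and 30% higher. In WT against Control, 8 assembly factors fell and 2 rose, and 14 ribosomal protein genes fell and 9 rose. There 1 complex II gene fell and 1 rose, 1 of complex III fell and 3 rose, 1 of complex IV fell and 1 rose, and 4 of ATP synthase fell and 2 rose, beside 28.1% of all genes lower and 28.7% higher. In SIRT5F101L against WT 0 genes of these lists were called.

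Some subunits share sequence with other genes, which makes their counts less certain. Ndufs3 matched Gm12251 over 75.7% of its longest transcript (618 counts in all, beside 15884 for Ndufs3). Ndufs5, Ndufb4, Ndufs6 and Ndufb3 matched copies over 46.9%, 40.2%, 37.9% and 37.0%, and those copies had 0 counts. Ndufc1 matched 25 genes over 10.6% of its longest transcript, with 164307 counts together beside 9693 for Ndufc1. Ndufb2 matched Braf and Gm42420 over 6.7% (12768 counts beside 477), and Ndufv3 matched Fam208a and Gm47591 over 7.0% (6652 counts beside 24679). How the counting treated reads from matching stretches is not given in the sources used here. Exons of Ndufb6 overlap Smim27 over 39.0% of their bases, those of Ndufa13 overlap Tssk6 over 30.0%, those of Ndufb9 overlap Gm49356 over 19.5%, and those of Ndufb5 overlap Mrpl47 over 12.3%. The strand setting of the counting is not given in the sources used here, so reads of overlapping genes cannot be told apart.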

How the data were processed

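The deposited files hold whole-number read counts per Ensembl gene for each library, as the authors left them. The submitters' processing notes list FastQC 0.11.9, HISAT2 2.2.1, HTSeq 2.0.2, DESeq2 1.38.3 and the build GRCm39 (mm39), with no role, annotation or strand setting. The members and lists were chosen with earlier results of these data known. Counts were scaled by TMM, filtered with filterByExpr and tested in 1 fit over all 12 libraries with edgeR 4.0.16 (limma 3.58.1, R 4.3.3), by the quasi-likelihood test with Benjamini-Hochberg adjustment over 14253 genes at 0.05, two-sided. Intervals of 95% use the SE and the total degrees of freedom. The main fit and the removal of the longest-transcript trend were tested on simulated data. There few genes changed, and an added length trend was the same in every SIRT5F101L library, unlike these data. The slope covariate was not simulated. CPM values use TMM-scaled totals, 15095357 to 24242139 counts before scaling, whose number limits the precision of low genes such as Ndufb2.

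Symbols were found for 52029 of 57010 identifiers. Transcript lengths, exon overlaps (bedtools 2.31.1) and copies of at least 100 bases at 95% identity (BLAST 2.17.0) came from GENCODE M21 on GRCm38, not the build of the counts; the only coordinates given are those of the RefSeq promoter windows, on GRCm38.p6. The principal length was that of the shortest transcript in the best class that the annotation marks as principal. Longest and principal lengths covered 98.8% and 87.8% of tested genes. Length and GC trends were loess fits of span 0.5, and the slope used as a covariate was on the longest transcript. Alternatives were other scalings and filters, a robust prior, DESeq2 1.42.0, only the 8 libraries compared, length and GC terms, and leaving out each library. The principal length trend, alone and without SIRT5F101L replicate 1, and leaving out both replicates 1 were chosen after seeing the data.

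Values in every library are given for the core subunits, for the 4 highest and 4 lowest log2 fold changes among subunits called against Control, and for the 4 lowest p in SIRT5F101L against WT. Other lists name at most the 2 called genes with the lowest adjusted p.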

Additional observations from a re-analysis of the deposited data

Results flagged for a closer look

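Within groups of 4 libraries, a value was picked out when its gap to the nearest other library, divided by the group's range, exceeded Dixon's 95% critical value. Chance picks out about 1 in 20 groups; over 105 measures that is 5.25, and 13 were found, 12 of them high values of SIRT5F101L replicate 1. The measures share libraries and are not independent. In SIRT5F101L replicate 1, Ndufa5 had 49.1 CPM (27.2 to 30.1 in the other 3 libraries), Ndufb3 40.2 (21.99 to 23.1), Ndufb4 46.5 (29.2 to 29.4) and Ndufb6 34.5 (20.5 to 21.5). In the same library Ndufb7 had 91.3 CPM (57.0 to 62.0), Ndufc2 58.9 (34.1 to 37.7), Ndufs3 76.3 (57.4 to 58.9) and Ndufs4 69.6 (51.9 to 54.7). Its CPM summed over the subunits was 1969.8 (1319 to 1406), and over subunits with a principal transcript under 1000 bases 1162 (709 to 769) and of 1000 bases or more 808 (610.3 to 638). The median deviation of the subunits from their mean log2 CPM was 0.21 in that library and -0.45 to -0.36 in the other 3. Control replicate 4 was low for Ndufc1, at 50.8 CPM beside 59.9 to 61.3.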

How the results depend on the processing

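No paired analysis was possible because the sample titles share no replicate numbers between groups. In WT against Control, subunits called lower (7) became, with the share of all genes called lower, 12 with no filter beyond 1 count (16.1%), 14 with only the 8 libraries compared (29.9%), 4 with the length slope as a covariate (28%), 3 with that slope and SIRT5F101L replicate 1 left out (22%), 13 with the longest-transcript trend removed and that library left out (30.6%), 11 with the principal trend removed and that library left out (32.2%), and 11 without both replicates 1 (28.8%); leaving out single libraries gave 4 to 15. Subunits called higher there (1) became 0 with upper-quartile scaling, no filter or the GC trend removed, 2 with only 8 libraries, either length trend removed or both replicates 1 left out, and 3 with the slope covariate or with any length term and SIRT5F101L replicate 1 left out (single libraries 0 to 1). The median there turned to 0.0379 with the slope covariate and 0.0361 with that library also left out. In SIRT5F101L against Control, the slope covariate gave 4 lower (23.4% of all genes) and a median of -0.0199. Leaving out single libraries gave 20 to 26 lower, beside 28% to 32.1% of all genes. The slope covariate with SIRT5F101L replicate 1 left out gave 1 lower (8.7% of all genes) and a median of -0.0666. Those called higher were 0 with the GC trend removed and 2 with the principal trend removed, with or without that library. With the slope covariate the value turned positive for Ndufa8 (0.12), Ndufb6 (0.094), Ndufc2 (0.014) and Ndufv3 (0.021), and with that library also left out for Ndufa8 (0.32), Ndufb5 (0.0015), Ndufs3 (0.0025), Ndufs4 (0.16) and Ndufs8 (0.00077). In SIRT5F101L against WT, subunits called lower (0) became 10 with no filter (0.921% of all genes), 19 and 16 with the longest and principal trends removed and SIRT5F101L replicate 1 left out (6.01% each), and 26 without both replicates 1 (10.8%); single libraries gave 0 to 23. Genes called there (6) were 354 with no filter, 44 by DESeq2, 2 with a robust prior or only 8 libraries, 0 with the GC trend removed, 25 with the slope covariate, 17 and 26 with the longest and principal trends removed, 2213 without SIRT5F101L replicate 1, 1217, 1224 and 10 with the longest trend, principal trend and slope terms and that library left out, 2882 without both replicates 1, and 0 to 3 without any other library. Genes called in SIRT5F101L against Control (8647) were 2972 with the slope covariate and that library left out. The cause of these shifts was not tested. Of 23 subunits called in SIRT5F101L against Control, 22 lost the call in some alternative and 8 changed sign, all 8 with the slope covariate. Apart from the slope covariate, the calls lost were those of Ndufa8, Ndufb6, Ndufs3, Ndufs8 and Ndufs1. Slopes did not overlap between the groups once SIRT5F101L replicate 1 was left out, so slope and group are hard to separate there. Low counts limit Ndufb2.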
